A study of Mus musculus with 6 samples.

Results

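Ceramide is the backbone from which cells build sphingomyelin and the glycosphingolipids, and its breakdown product sphingosine can be phosphorylated to sphingosine 1-phosphate (S1P), a lipid that signals through its own receptors. New ceramide starts in the endoplasmic reticulum, where serine palmitoyltransferase joins serine with palmitoyl-CoA, ceramide synthases add a second acyl chain and dihydroceramide desaturase puts in the double bond. S1P is made by sphingosine kinases and destroyed for good by S1P lyase, and in skeletal muscle S1P is known to act on satellite cells and on their differentiation. The 10 genes described here encode enzymes of these steps outside the lysosome: Sptlc1, Sptlc2, Cers2, Cers5, Cers6, Degs1, Sgms1, Ugcg, Sphk1 and Sgpl1. They were picked by symbol out of 47069 genes in the count table, for their place in the pathway, and all 10 passed the filter on low counts that left 14165 genes to be tested.

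Muscle stem cells of dystrophin-deficient mdx mice, which model Duchenne muscular dystrophy, were grown in serum-rich medium with FGF2 and received either vehicle (3 libraries) or 10 μM PSB-KD107 (3 libraries), a synthetic agonist of the lipid receptor Gpr18. The sample records give a treatment of 2 days and the methods of the study an overnight one, and the controls are called untreated in one label and vehicle-treated in another. Both groups therefore share the mdx background and the culture medium and differ in the compound. The cells came from 3 mice according to the methods, but the table numbers its libraries 1, 2 and 4 in each group while the records number them 1, 2 and 3, so the libraries numbered 4 are known by group only. Nothing states that the libraries with the same number came from the same mouse. The main tests treat all libraries as unpaired, although cells of 1 mouse may have given a library to each group.

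Polyadenylated RNA was sequenced, and the deposited table holds raw counts per gene, with between 30917613 and 48756794 counts per library. Values are given in CPM, the counts of a gene relative to the library total, scaled by the TMM method, and 3 counts correspond to between 0.0596 and 0.0962 CPM, a floor that covers counting error only. Myoblast markers other than Msc were present. The sum over 8 genes was 6008 to 6491 CPM in vehicle libraries and 5954 to 6103 CPM with PSB-KD107, the largest part of it Des. Msc had 1 to 5 counts per library and was not tested. Pax7, the marker of muscle stem cells, had 68.8, 49.9 and 60.0 CPM in vehicle libraries 1, 2 and 4 and 34.0, 26.8 and 35.1 CPM in the PSB-KD107 libraries, without overlap (log2 fold change -0.90, standard error 0.17, adjusted p = 0.209 in edgeR and 0.00067 in DESeq2). The other tested myoblast markers overlapped between the groups. On the log2 scale Myf5 (0.73) and Des (0.15) were higher with PSB-KD107. Myod1 (-0.59), Cdh15 (-0.42), Itga7 (-0.11) and Sdc4 (-0.02) were lower. Genes of differentiating muscle, such as Myog and the embryonic myosin Myh3, were also detected in every library of these cells labelled as stem cells. Their sum over 8 genes was 31722 to 40173 CPM with vehicle and 26831 to 30794 CPM with PSB-KD107, without overlap, the largest part of it Myh3. Myog, Mymk and Myh3 were lower with PSB-KD107 without overlap, while Myh8, Acta1, Ckm, Tnnt3 and Mybph overlapped between the groups. The part of these shifts in the results was not tested. In such bulk RNA, fewer cells of a type and less RNA per cell cannot be told apart. Markers of other cells were low, at most 6.58 CPM summed over 7 macrophage and leukocyte genes, with Adgre1 and C1qa at 0 counts in all 6 libraries, at most 4.08 CPM over 5 endothelial genes, 4.03 over 3 glial genes and 0.0642 over 4 adipocyte genes. The fibroblast list reached 398 CPM, nearly all of it Col3a1, with Lum at 0 counts and Pdgfra at or under 1.46 CPM. Ly6a, also on that list, had 8.36 CPM in PSB-KD107 library 4 and 0.16 to 1.29 CPM in the other libraries. Dcn, Thy1 and Pi16 were at or under 1.25 CPM. Gpr18 itself had 0 counts in all 6 libraries.

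Some libraries stood apart. Xist, the RNA that coats the inactive X chromosome, had 6.45 CPM in vehicle library 1 and 7.41 CPM in PSB-KD107 library 1, against 276 to 437 CPM in the other 4. Dmd, the dystrophin gene, had 1.73 CPM in PSB-KD107 library 4 and 16.2 to 20.0 CPM in the other 5. Results are therefore also given without PSB-KD107 library 4 and without the pair numbered 1.

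Across the 10 enzymes, the mRNAs differed between PSB-KD107 and vehicle by log2 fold changes from -0.24 (Cers6) to 1.50 (Sphk1). In edgeR's quasi-likelihood test 5 were higher and 5 lower. Their median log2 fold change was 0.10, against -0.00074 over all genes tested. None of the 10 passed an adjusted p-value of 0.05, and the smallest adjusted p-value among them was 0.523. The same test called 0% of all genes, so that a missing call does not set these enzymes apart. At an unadjusted p-value under 0.05 there was 1 of the 10, Sphk1, which is 10% of the list against 9.40% of all genes tested. This test is unpaired. With a replicate block on libraries 1 and 2 of each group, edgeR put 7 of the 10 and 4410 genes in all under that threshold. That fit is described at the end. DESeq2 called 3.39% of all genes after adjustment and none of the 10, the smallest adjusted p-value being 0.231. The values of the groups overlapped for all 10 enzymes, whereas for 15.8% of all genes they lay apart, 9.20% with PSB-KD107 higher and 6.59% with PSB-KD107 lower. A two-sided exact permutation test of 3 libraries against 3 cannot give a p-value below 0.1, and for the 10 enzymes its p-values lay between 0.2 and 1.

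**Figure D1:**
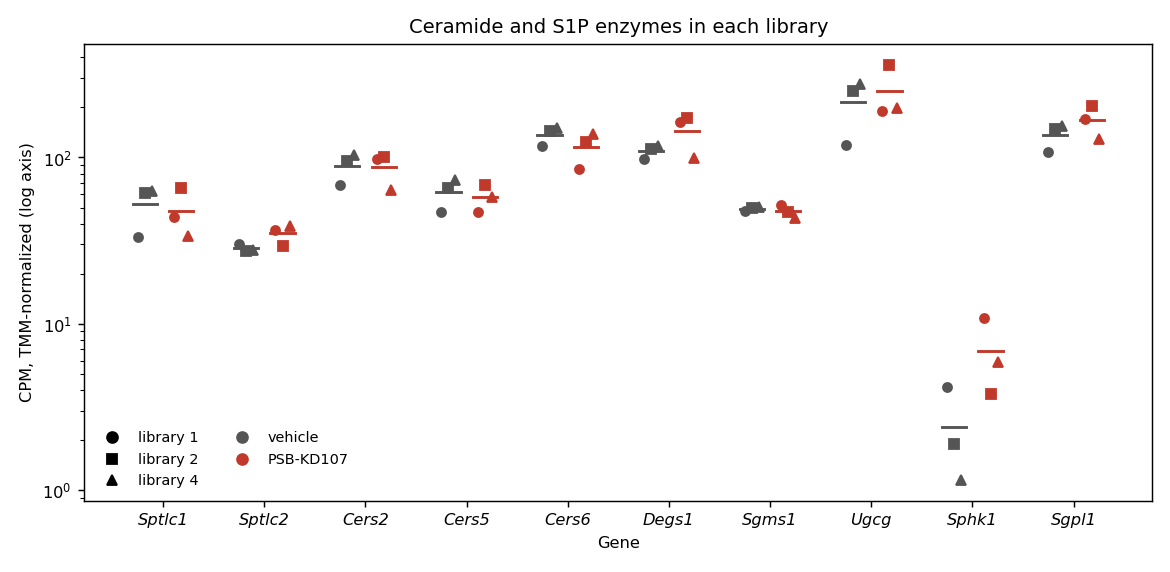
CPM (log axis) of the 10 enzymes in each library, with vehicle in grey, PSB-KD107 in red, the library number as the marker shape and the group mean as a line. Vehicle and PSB-KD107 points overlap for every gene, Sphk1 lies lowest at 1.15 to 10.8 CPM, and vehicle library 1 is the lowest vehicle library for 8 of the 10.

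Per kilobase of annotated exon, which allows a rough comparison of different genes, the enzymes covered a wide range in vehicle cells. The length used merges all annotated exons of a gene, 10546 bases for Sgms1 and 3556 for Sptlc1, and the transcripts expressed may be shorter. In plain CPM the vehicle means of these 2 genes were close, at 49.3 and 52.3. Degs1 was highest at 42.2 ± 3.93 CPM per kb (mean ± SD, n = 3), followed by Ugcg at 41.1 ± 16.1, Cers2 at 24.2 ± 5.07 and Sgpl1 at 22.4 ± 4.14 CPM per kb. Cers5, Cers6 and Sptlc1 came next, at 17.5 ± 3.82, 15.4 ± 2.00 and 14.7 ± 4.63 CPM per kb. Within these 7 genes the vehicle range of each overlapped with that of its neighbour, so that neighbours are not resolved. Degs1, at 37.8 to 45.4 CPM per kb, lay above all vehicle libraries of Cers2 (18.5 to 28.2) and of the 4 genes after it. Sgms1 at 4.67 ± 0.15, Sptlc2 at 3.50 ± 0.19 and Sphk1 at 0.50 ± 0.33 CPM per kb lay lower, below all vehicle libraries of Sptlc1, and there no neighbours overlapped. With PSB-KD107 Degs1, Ugcg, Cers5 and the 3 low genes kept their ranks, while Cers2 and Sgpl1 changed places, as did Cers6 and Sptlc1.

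Serine palmitoyltransferase catalyses the first and rate-limiting step and needs both of its large subunits. Sptlc1 (ENSMUSG00000021468, chromosome 13 from 53332748 to 53377397 in GRCm38), which encodes the subunit that binds no cofactor, had 33.3, 60.9 and 62.7 CPM in vehicle libraries 1, 2 and 4 and 44.1, 65.7 and 33.5 CPM in PSB-KD107 libraries 1, 2 and 4. The low libraries were vehicle library 1 and PSB-KD107 libraries 1 and 4, and the groups overlapped. This gave a log2 fold change of -0.13 (standard error 0.33, edgeR adjusted p = 0.920), which was 0.07 without PSB-KD107 library 4.

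Sptlc2 (ENSMUSG00000021036, chromosome 12 from 87305058 to 87388355), the subunit that carries the catalytic pyridoxal phosphate, had 30.2, 27.4 and 27.7 CPM with vehicle and 36.7, 29.3 and 38.9 CPM with PSB-KD107. PSB-KD107 libraries 1 and 4 were above every vehicle library, and library 2 fell just below the highest of them. Its log2 fold change of 0.30 (standard error 0.14) did not pass the test (unadjusted p = 0.0726, adjusted p = 0.587, edgeR). Without both libraries numbered 1 it was 0.30 again.

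The 2 subunits did not vary together. Per kilobase, Sptlc1 exceeded Sptlc2 by 2.52, 5.08 and 5.17 times in the vehicle libraries and by 2.74, 5.11 and 1.96 times in the PSB-KD107 libraries (two-sided exact permutation test on the log ratio, p = 0.6, n = 3 per group). The ratio was high in both libraries numbered 2 and in vehicle library 4, and low in both numbered 1 and in PSB-KD107 library 4.

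The ceramide synthases differ in the acyl-CoA they prefer, Cers2 taking very long chains and Cers5 and Cers6 mainly palmitoyl-CoA. Cers2 (ENSMUSG00000015714, chromosome 3 from 95314791 to 95323599) had 68.0, 95.1 and 103.7 CPM with vehicle and 97.5, 100.7 and 63.7 CPM with PSB-KD107. The 2 groups spanned the same range, with vehicle library 1 and PSB-KD107 library 4 at its foot. Its log2 fold change was -0.03 (standard error 0.23, edgeR adjusted p = 0.978), and this became 0.16 without PSB-KD107 library 4 and -0.29 without the libraries numbered 1.

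Cers5 (ENSMUSG00000023021, chromosome 15 from 99734881 to 99772885) had 47.2, 65.6 and 73.5 CPM with vehicle and 46.7, 68.2 and 58.0 CPM with PSB-KD107. Both libraries numbered 1 were the lowest of their group, and the log2 fold change was -0.11 (standard error 0.21). Cers6 (ENSMUSG00000027035, chromosome 2 from 68861441 to 69114282) had 116.7, 144.8 and 149.6 CPM with vehicle against 84.9, 123.8 and 138.9 CPM with PSB-KD107. Its log2 fold change of -0.24 (standard error 0.20, edgeR adjusted p = 0.756) was the lowest of the 10, with PSB-KD107 library 1 below all others. It was -0.39 without PSB-KD107 library 4 and -0.07 without PSB-KD107 library 1, when Sgms1, Cers2 and Sptlc1 were lower.

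As shares of the family per kilobase, Cers2 made up 35.1% to 36.3% of Cers1 to Cers6 in the vehicle libraries, a narrow range. With PSB-KD107 it spread to 44.1%, 36.4% and 28.8% in libraries 1, 2 and 4. Cers6 took 25.0%, 22.6% and 21.7% with vehicle and 15.9%, 18.5% and 26.0% with PSB-KD107, so that libraries 1 and 4 of the treated group departed from vehicle in opposite directions. Cers5 stayed between 22.0% and 27.2% in all 6 libraries. The shares of the groups overlapped for all 6 synthases (two-sided exact permutation tests on the log share, p between 0.2 and 0.9, n = 3 per group).

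Degs1 (ENSMUSG00000038633, chromosome 1 from 182275772 to 182282804) encodes the desaturase that turns dihydroceramide into ceramide. It had 98.0, 112.8 and 117.6 CPM in vehicle libraries 1, 2 and 4, and 163.6, 173.1 and 99.2 CPM in the PSB-KD107 libraries. PSB-KD107 libraries 1 and 2 lay above every vehicle library, whereas library 4 lay at the lower end of the vehicle range. The log2 fold change was 0.41 (standard error 0.22, unadjusted p = 0.114, adjusted p = 0.633, edgeR). Without PSB-KD107 library 4 it was 0.62, with an unadjusted p-value of 0.00247 and an adjusted p-value of 0.182, while it was 0.26 without PSB-KD107 library 2 and 0.23 without both libraries numbered 1.

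Ceramide is then converted to sphingomyelin by Sgms1 in the Golgi or to glucosylceramide by Ugcg. Sgms1 (ENSMUSG00000040451, chromosome 19 from 32122727 to 32389714) was the steadiest of the 10, with 47.5, 49.8 and 50.4 CPM with vehicle and 51.8, 46.8 and 43.5 CPM with PSB-KD107. Its highest and lowest vehicle libraries differed 1.06-fold, where the median over all genes tested was 1.32-fold. In edgeR the log2 fold change was -0.06 (standard error 0.10).

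Ugcg (ENSMUSG00000028381, chromosome 4 from 59189257 to 59222833), the gateway to glycosphingolipids, varied widely. It had 118.5, 249.8 and 275.0 CPM with vehicle and 190.6, 361.3 and 198.4 CPM with PSB-KD107. Vehicle libraries differed 2.32-fold among themselves, more than the means of the groups did, and each group had its lowest value in library 1. The log2 fold change was 0.22 (standard error 0.39, edgeR adjusted p = 0.885). It was -0.08 without vehicle library 1 and -0.15 without PSB-KD107 library 2, and 0.44 without vehicle library 4.

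The ratio of Ugcg to Sgms1 per kilobase, the balance of the mRNAs for the 2 fates, was 5.05, 10.2 and 11.03 with vehicle and 7.45, 15.6 and 9.22 with PSB-KD107. The groups overlapped (two-sided exact permutation test on the log ratio, p = 0.6, n = 3 per group), and library 1 was again the lowest of each group.

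Sphk1 (ENSMUSG00000061878, chromosome 11 from 116530925 to 116536674), an inducible kinase that phosphorylates sphingosine to S1P, was the enzyme with the largest difference. It had 164, 66 and 37 counts with vehicle, or 4.18, 1.89 and 1.15 CPM, and 544, 117 and 215 counts with PSB-KD107, or 10.8, 3.75 and 5.92 CPM. PSB-KD107 libraries 1 and 4 were above all vehicle libraries, and library 2 lay just under vehicle library 1. The mean was 2.41 ± 1.58 CPM with vehicle and 6.83 ± 3.62 CPM with PSB-KD107 (SD, n = 3). This was a difference of 1.50 on the log2 scale (standard error 0.60, unadjusted p = 0.0461, adjusted p = 0.523 in edgeR, 0.231 in DESeq2). The groups overlapped (two-sided exact permutation test, p = 0.2, n = 3 per group).

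The direction of the Sphk1 difference was kept when any library was left out, with log2 fold changes between 0.99 (without PSB-KD107 library 1) and 2.16 (without vehicle library 1). The unadjusted p-value was then under 0.05 in edgeR only without vehicle library 1 (0.0117) or PSB-KD107 library 2 (0.0311), and was 0.0719 without PSB-KD107 library 4. Without both libraries numbered 1 the log2 fold change was 1.66 (unadjusted p = 0.0183, adjusted p = 0.570). Among the members and the pathway genes tested, 81 in all, the profiles most like that of Sphk1 were those of Slc1a5, a glutamine transporter, and Phgdh, the first enzyme of serine synthesis, with root mean square differences of 0.46 and 0.54 in centred log2 CPM over 6 libraries.

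Sgpl1 (ENSMUSG00000020097, chromosome 10 from 61098642 to 61147703), the lyase that ends S1P by cleaving it, had 108.1, 148.9 and 154.9 CPM with vehicle and 169.5, 205.1 and 129.2 CPM with PSB-KD107. As for Degs1, PSB-KD107 libraries 1 and 2 exceeded every vehicle library and library 4 did not. The log2 fold change was 0.29 (standard error 0.21, edgeR adjusted p = 0.720) and 0.45 without PSB-KD107 library 4. It was 0.12 without PSB-KD107 library 2, 0.14 without vehicle library 1 and 0.13 without both libraries numbered 1. Per kilobase, Sgpl1 exceeded Sphk1 by 20.1, 61.2 and 104.9 times with vehicle and by 12.2, 42.5 and 17.0 times with PSB-KD107. The lyase mRNA was thus the more abundant in all 6 libraries, and the groups overlapped (two-sided exact permutation test on the log ratio, p = 0.2, n = 3 per group).

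**Figure D2:**
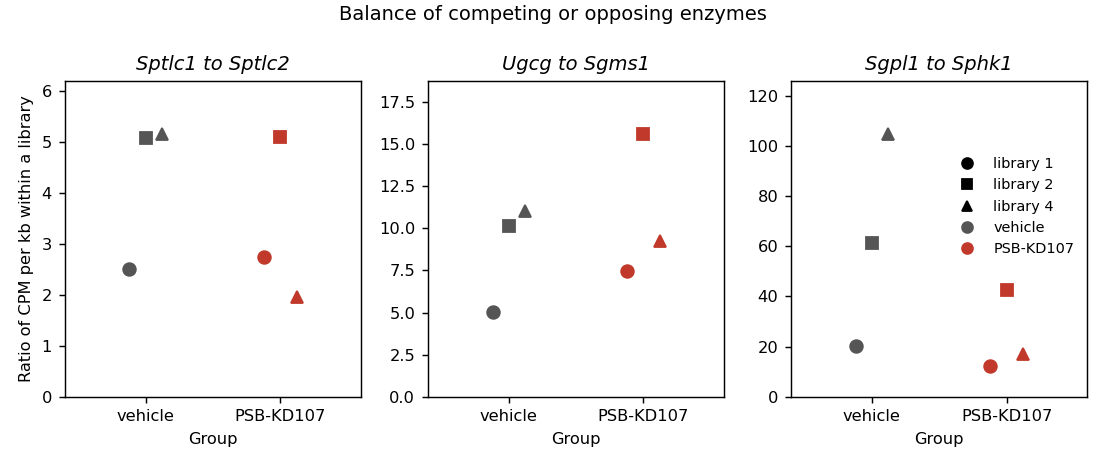
Ratios of CPM per kb within each library for Sptlc1 to Sptlc2, Ugcg to Sgms1 and Sgpl1 to Sphk1, by group, with the library number as the marker shape. Both libraries numbered 1 give low values in all 3 panels, and vehicle and PSB-KD107 overlap in each.

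The spread between libraries had a shared part. Vehicle library 1 was the lowest vehicle library for 8 of the 10 enzymes, against 43.9% of all genes tested, and vehicle library 4 was the highest for 8, against 34.5%. Among the PSB-KD107 libraries, library 2 was the highest for 6 of the 10, against 34.4% of all genes, and library 4 the lowest for 5, against 37.3%. The exceptions in vehicle were Sptlc2 and Sphk1, for which library 1 was the highest. With library 4 of PSB-KD107 left out, the median log2 fold change of the 10 was 0.19, and without vehicle library 1 it was -0.08, so that the sign of the list's median rested on which libraries were used.

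**Figure D3:**
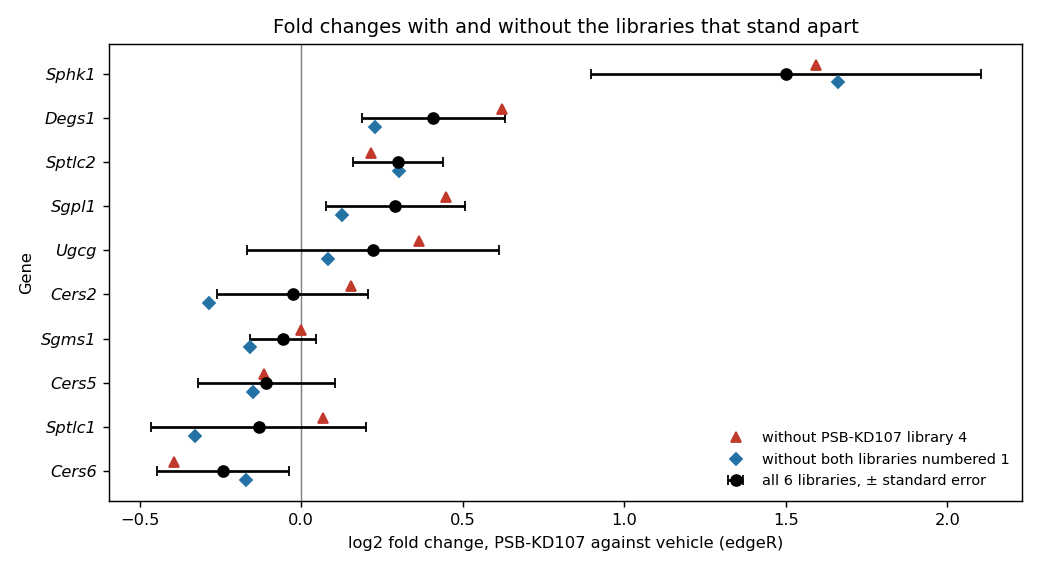
Log2 fold changes of the 10 enzymes in edgeR, PSB-KD107 against vehicle, with all 6 libraries (black, bars are standard errors), without PSB-KD107 library 4 (red triangles) and without both libraries numbered 1 (blue diamonds). Sphk1 lies at 1.50 and the other 9 between -0.24 and 0.41.

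The promoters of the 10 genes were searched for short motifs of factors that act on lipid, lysosomal, amino acid and early response genes. In the 250 bases before each RefSeq start (GRCm38.p6, both strands), the sterol response element TCACNCCAC and the amino acid response element TGATGNAA were found at none of the 18 starts of the 10 genes, against 1.05% and 3.45% of all 32851 such windows. The E-box CACGTG, a palindrome bound by TFEB, USF and MYC family factors, was found in 4 of the 10 genes, Degs1, Cers6, Cers2 and Sphk1, where 6.86% of all genes with a listed start hold it. By start it was found at 5 of 18, the Sphk1 site counting for 2, against 6.02% of windows. The AP-1 motif TGANTCA, bound by Fos and Jun, was found in Sphk1 and Sgms1, where 7.82% of genes hold it, and the match in Sphk1 lies in an annotated exon. By start it was found at 3 of 18, against 6.75% of windows. The GC box GGGCGG, bound by SP family factors, was found in 7 of the 10 genes and in 35.4% of all genes, or at 8 of 18 starts against 32.7% of windows. Genes with more starts have more windows to match, and the shares cover all listed genes, not only those tested here. The E-box sites are shown to let their flanks be compared, in 30 bases on the strand of the gene with the motif in capitals, followed by the AP-1 site of Sphk1.
Degs1 E-box (chr1:182282221-182282250, minus strand): gggagcctcaatCACGTGgtccagtcagct
Cers6 E-box (chr2:68861407-68861436, plus strand): cggccaggctgcCACGTGacaggcgaggcg
Cers2 E-box (chr3:95315049-95315078, plus strand): cgccctgcggggCACGTGccacccgccccg
Sphk1 E-box (chr11:116532337-116532366, plus strand): catacaccggggCACGTGtgcattttcacc
Sphk1 AP-1 (chr11:116531776-116531805, plus strand): gagcgtgtcgcTGAGTCAccttctcggaag
These motifs begin 43, 22, 129, 95 and 50 bases before the nearest RefSeq start that follows them. The 4 genes with an E-box had log2 fold changes of 0.41, -0.24, -0.03 and 1.50, in both directions and none past an adjusted p-value of 0.05. A match of letters is not evidence of binding, and Sphk1 has 5 listed starts, whose use the gene counts do not separate.

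The remaining sphingolipid genes outside the lysosome, 55 listed and 45 tested, divided evenly as well. In PSB-KD107-treated cells 22 of them were higher and 23 lower, and the median on the log2 scale was -0.02. An unadjusted p-value under 0.05 was reached by 4 of the 45, all higher, where 6.47% of all genes were higher and 2.93% lower at this threshold.

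Among the partners of serine palmitoyltransferase, none of the 5 tested passed an unadjusted p-value of 0.05, and their median log2 fold change was 0.15. Ormdl2, whose product restrains the enzyme, came first by p-value, at 9.06, 8.05 and 8.10 CPM with vehicle and 9.92, 10.9 and 9.27 CPM with PSB-KD107 (log2 fold change 0.26, standard error 0.15). Its groups did not overlap, but the difference was small. Sptlc3, another large subunit, had 0 counts in all 6 libraries. Of the other ceramide synthases and desaturases, 2 were higher and 2 lower (median 0.03). Cers4 had the smallest p-value, at 18.2, 13.9 and 13.0 CPM with vehicle and 30.01, 22.0 and 9.27 CPM with PSB-KD107, overlapping.

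Of the 7 tested genes for ceramide transfer, headgroups and ceramide phosphorylation, 6 were higher and 1 lower (median 0.31 on the log2 scale), and 2 passed an unadjusted p-value of 0.05, both higher, against 6.47% of all genes. Cerk, the kinase that makes ceramide 1-phosphate, had 16.2, 22.0 and 15.6 CPM with vehicle and 45.1, 49.5 and 24.9 CPM with PSB-KD107. All 3 treated libraries were above all vehicle libraries. The change was 1.15 on the log2 scale (standard error 0.29, adjusted p = 0.310 in edgeR and 0.0142 in DESeq2). Sgms2, the sphingomyelin synthase of the plasma membrane, had 9.08, 7.19 and 6.64 CPM with vehicle and 18.4, 10.0 and 10.9 CPM with PSB-KD107, also without overlap (log2 fold change 0.78, standard error 0.29, adjusted p = 0.479 in edgeR). Its Golgi counterpart Sgms1 had a log2 fold change of -0.06, as given above, and the difference between the 2 genes was not tested.

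The list of other S1P genes also held Aldh3a2, Hacd2, Hacd3 and Tecr, which are not confined to S1P. Of its 11 genes tested, 5 were higher and 6 lower (median -0.06). Spns2, an S1P exporter, was scarce at 0.36, 0.49 and 0.40 CPM with vehicle and 0.78, 0.93 and 0.72 CPM with PSB-KD107, without overlap (log2 fold change 0.95, standard error 0.30, edgeR adjusted p = 0.414). Plpp2, a lipid phosphatase that can act on S1P, went from 13.8, 17.1 and 15.9 to 27.8, 22.9 and 17.3 CPM (log2 fold change 0.54, standard error 0.21, edgeR adjusted p = 0.502). The second sphingosine kinase, Sphk2, had close values in both groups, at 39.0, 41.2 and 44.5 CPM with vehicle and 42.0, 42.9 and 35.1 CPM with PSB-KD107. Of the 3 S1P receptors tested, none passed an unadjusted p-value of 0.05. S1pr1 was the receptor with the smallest p-value, with 30.8, 50.7 and 50.5 CPM with vehicle and 15.5, 43.7 and 43.9 CPM with PSB-KD107, and each group had its low value in library 1.

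Non-lysosomal hydrolases had a median log2 fold change of -0.04, with 2 of 8 higher and 6 lower. Gba2, the glucosylceramidase outside the lysosome, had 16.2, 15.4 and 17.2 CPM with vehicle and 13.0, 13.0 and 13.7 CPM with PSB-KD107, without overlap (log2 fold change -0.29, standard error 0.12, unadjusted p = 0.0553, adjusted p = 0.544, edgeR). In glycosphingolipid synthesis downstream of Ugcg, 1 of 7 was higher and 6 lower (median -0.10), and none was at an unadjusted p-value under 0.05. St3gal5, which makes the ganglioside GM3, had the smallest p-value, with 195.4, 339.6 and 341.6 CPM with vehicle and 166.1, 276.6 and 205.0 CPM with PSB-KD107.

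The lysosomal sphingolipid genes and the suppliers of the substrates are given for comparison. Of 13 lysosomal hydrolases and activators, 11 were higher (median 0.65 on the log2 scale), and 9 passed an unadjusted p-value of 0.05, all higher, where 6.47% of all genes were higher at this threshold. Hexa, a subunit of the hexosaminidase that degrades gangliosides, had 75.9, 74.3 and 65.4 CPM with vehicle and 130.2, 134.7 and 133.8 CPM with PSB-KD107 (log2 fold change 0.89, standard error 0.09, adjusted p = 0.0874 in edgeR and 5.9e-15 in DESeq2). Asah1, acid ceramidase, had a log2 fold change of 0.65. Of 13 genes for the supply of serine and palmitoyl-CoA, 12 were higher (median 0.82), and 9 passed an unadjusted p-value of 0.05, all higher, against the same 6.47%. Psph, the last enzyme of serine synthesis, had 9.98, 9.48 and 10.3 CPM with vehicle and 35.2, 28.7 and 24.0 CPM with PSB-KD107, a log2 fold change of 1.56. Phgdh and the serine transporter Slc1a4 had log2 fold changes of 1.19 and 1.45. Both lists were written with earlier results of these data known, and no test of the difference between lists was made.

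**Figure D4:**
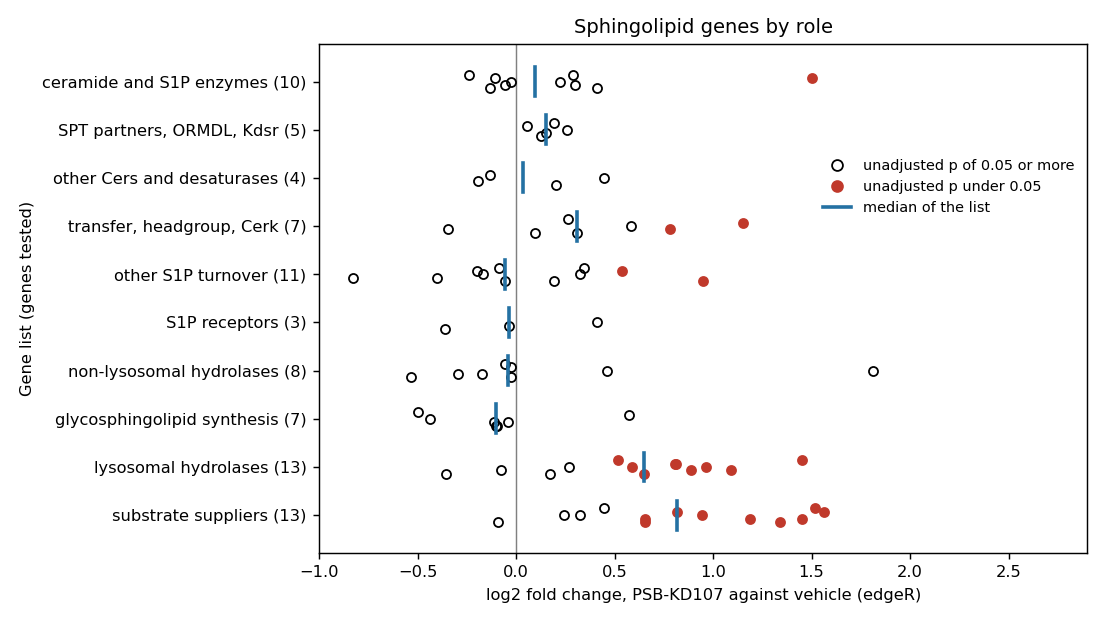
Log2 fold changes in edgeR, PSB-KD107 against vehicle, of every tested gene of the 10 enzymes and 9 role lists, filled where the unadjusted p-value is under 0.05, with the median of each list as a blue line. The medians of the synthesis and S1P lists lie between -0.10 and 0.31, and those of the lysosomal and substrate lists at 0.65 and 0.82.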

How the data were processed

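RNA of 3 vehicle and 3 PSB-KD107 libraries was sequenced in paired-end mode. The authors aligned the reads with STAR to mm10 and deposited raw counts per gene, without normalization. The counting program and its strand setting are not given in the sources used here, so reads of overlapping genes may be mixed: Cers2 shares 75 exonic bases with Setdb1 and Sphk1 192 with the antisense gene Gm29292, which had 42 counts in all. No table column was left unused.

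Names came from the table, or from GENCODE M21 (GRCm38) by identifier where symbols differed. Exon lengths and coordinates came from GENCODE M21 and promoters from RefSeq (GRCm38.p6), where all 10 genes matched. R 4.3.3, edgeR 4.0.16 (filterByExpr, TMM, glmQLFit and glmQLFTest with defaults), DESeq2 1.42.0 and limma 3.58.1 were used, with Benjamini-Hochberg adjustment over all 14165 genes. Standard errors are the absolute log2 fold change over the root of F. Single genes were compared by exact permutation of log2 CPM with an offset of 0.1. On simulated counts of this comparison (14165 genes), edgeR recovered 59% of 4-fold and 9% of 2-fold changes, with 2 false calls among 70, and DESeq2 78% and 42%, with 71 false among 191. The simulated libraries were independent, with 200 changed genes and the dispersions that edgeR estimated from these data. The real libraries share deviations, so these rates need not hold for the real counts of either program.

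The members and lists were chosen with earlier results of these data known. Named were the 10 members and, per list, up to 3 genes with the smallest p-values under 0.05, or else the first. Of the genes this rule names, 1 is not reported here. Sphk2 and Sptlc3 were added after their values were seen. P-values weigh the difference between the groups against the spread between these libraries. In the main tests that spread includes any differences between mice.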

Additional observations from a re-analysis of the deposited data

How the results depend on the processing

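The count of genes called by edgeR was 0 with RLE factors, with the FPKM filter, with limma-voom and with any library left out, 8 with no filter on low counts, 480 with DESeq2 and 2456 once a replicate block was fitted to libraries 1 and 2 of each group. An unadjusted p-value under 0.05 was reached by 1331 genes, and by 677 to 1783 with a library left out. The count of the 10 enzymes at that threshold was 1, between 0 and 2 with a library left out, and 7 under the block. Deviations from the group means correlated at 0.63 for number 1, 0.50 for number 2 and -0.13 for number 4 over 14165 genes. Those of PSB-KD107 library 2 correlated at 0.64 with vehicle library 4 and at -0.70 with vehicle library 1. The main fit had no block, since the methods of the study state none. The block on 4 libraries leaves 1 residual degree of freedom per gene, and under it the log2 fold changes were 0.25 for Sptlc1, 0.30 for Cers2, 0.019 for Cers5, 0.018 for Sgms1, -0.34 for Cers6, 0.68 for Degs1, 0.61 for Ugcg, 1.21 for Sphk1 and 0.55 for Sgpl1, the last 5 with adjusted p-values under 0.05. The same 4 libraries without a block gave 0.22, 0.28, 0.025 and 0.017 for the first 4 and 0 calls, and a replicate block for numbers 1, 2 and 4 gave 0 calls and no reversal. List medians moved to 0.075 with the block on 4 libraries and 0.077 without it for partners of serine palmitoyltransferase, to -0.59 and -0.47 for S1P receptors, and to 0.78 and 0.77 for lysosomal genes. Without both libraries numbered 1 the median was 0.54 for ceramide transfer and headgroups and -0.17 for non-lysosomal hydrolases. With a library left out, log2 fold changes ranged from -0.44 to 0.067 for Sptlc1, -0.19 to 0.16 for Cers2, -0.28 to 0.029 for Cers5, -0.14 to 0.00013 for Sgms1 and -0.15 to 0.44 for Ugcg, and medians from 0.17 to 0.63 for ceramide transfer and headgroups, -0.17 to 0.010 for non-lysosomal hydrolases and 0.59 to 0.74 for lysosomal genes. The cause of these shifts was not tested. The block over 6 libraries, the 4 libraries without a block, the pair numbered 1 left out and limma-voom were chosen after seeing the data. Of the other 300 values, fold changes kept their direction and side of the threshold, and list medians moved by less than the spread between replicates. Counts among them stayed within a fixed factor of the main count.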

Other observations

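Smpdl3b and Asah2, which encode a sphingomyelinase-like protein and neutral ceramidase, were chosen after their values were seen. Smpdl3b had 3.37, 1.40 and 1.27 CPM in vehicle libraries 1, 2 and 4 and 3.72, 1.76 and 15.8 CPM in the PSB-KD107 libraries. Asah2 had 9.69, 7.59 and 6.58 CPM with vehicle and 7.55, 6.29 and 19.0 CPM with PSB-KD107. Both were highest in PSB-KD107 library 4, the library with the least Dmd, and the other 2 treated libraries lay near the vehicle range.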
